A study of Mus musculus with 18 samples.

Results

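A set of 10 feedback genes was followed from the yolk sac to the adult brain in single sorted myeloid cells of the mouse. They were chosen by name, as 10 of the 27297 gene rows of the count table: Dusp1, Zfp36, Nfkbia, Btg2, Ier2, Ier3, Ier5, Rhob, Sgk1 and Nr4a1, each with a row of its own. Growth factors, cytokines and cell stress switch on immediate early genes through MAP kinases and NF-kB within minutes, without new protein synthesis. Part of these genes encode transcription factors such as Fos, and another part encode inhibitors that end the response: a phosphatase that inactivates MAP kinases (Dusp1), a protein that speeds the decay of inflammatory mRNAs (Zfp36) and the inhibitor that holds NF-kB in the cytoplasm (Nfkbia). In microglia, the macrophages of the brain, such genes are also known to rise when cells are taken out of the tissue. The question was which of the genes went with the Fos level of a cell and which went with the stage of the animal.

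All mice were of the strain CX3CR1-GFP+ C57BL/6J, in which green fluorescent protein reports the Cx3cr1 gene, and none was treated. The groups were yolk sac at embryonic day 12.5 (E12.5; 4 libraries, 671 cells), brain at E12.5 (4 libraries, 718 cells), brain at embryonic day 18.5 (E18.5; 6 libraries, 992 cells) and adult brain (4 libraries, 631 cells). The sort gate was CD45+CD11B+CX3CR1-GFP+ at E12.5 and CD45intCD11BintCX3CR1-GFP+ later, so the gate and the age changed together after E12.5. Counts are of unique molecular identifiers (UMIs), which mark single transcript molecules, and levels are UMI counts scaled to a library total of 1000000 (CPM).

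A library held 269698 to 309084 UMIs in yolk sac. The range was 228467 to 534219 for brain at E12.5, 143876 to 217647 for brain at E18.5 and 74562 to 99494 for the adult. The libraries of an age carried 1 subject number and each plate held 2 libraries, so the p-values below cover library-to-library spread alone, which can be technical. The 10 microglia markers were detected in all groups, with sums of 6154 to 7312 CPM in yolk sac, and of 14181 to 16076, 29283 to 33909.9 and 50164 to 53365 CPM over the 3 brain stages. The 7 markers of border and yolk sac macrophages summed to 3792 to 6432 CPM in yolk sac and to at most 281 CPM in any brain library. The 9 neutrophil and granulocyte precursor markers summed to 429 to 1542, 78.9 to 158, 229.7 to 1272 and 2495 to 9439 CPM over the same 4 groups, with S100a9, Ngp and Retnlg at 0 in every library. The 36 wells without a cell held 1008 UMIs in all, of which 0 were Fos and 1 belonged to a feedback gene.

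The promoters of 4 of the genes are shown because each holds letters of an element known from the immediate early response. RefSeq entries of build GRCm38.p6 matched 9 of the 10 genes by symbol, and each window ran from 250 bases before to 50 bases after the annotated start. Each line gives the 250 bases before the start, 5′ to 3′ on the strand of the gene. The capitals mark TGACGTCA, the cyclic AMP response element, in Dusp1 (chr17:26508473-26508722, minus strand) and Btg2 (chr1:134079156-134079405, minus strand), a CArG box, the element of serum response factor, in Zfp36 (chr7:28379229-28379478, minus strand), and a kappaB site, the element of NF-kB, in Nfkbia (chr12:55492648-55492897, minus strand).
Dusp1: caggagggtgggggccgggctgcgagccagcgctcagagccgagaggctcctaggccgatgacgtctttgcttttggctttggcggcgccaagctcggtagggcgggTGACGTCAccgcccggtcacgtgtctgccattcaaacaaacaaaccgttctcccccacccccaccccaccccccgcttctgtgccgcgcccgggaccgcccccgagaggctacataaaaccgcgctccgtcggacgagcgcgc
Btg2: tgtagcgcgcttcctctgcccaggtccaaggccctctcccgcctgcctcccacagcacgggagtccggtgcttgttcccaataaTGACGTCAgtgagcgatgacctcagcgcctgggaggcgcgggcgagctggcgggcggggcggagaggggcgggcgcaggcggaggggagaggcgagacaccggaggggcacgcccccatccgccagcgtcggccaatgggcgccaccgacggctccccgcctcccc
Zfp36: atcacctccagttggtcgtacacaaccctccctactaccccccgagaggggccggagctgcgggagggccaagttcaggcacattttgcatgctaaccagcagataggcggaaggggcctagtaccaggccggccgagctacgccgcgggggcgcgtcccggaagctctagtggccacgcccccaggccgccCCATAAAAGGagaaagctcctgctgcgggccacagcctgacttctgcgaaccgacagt
Nfkbia: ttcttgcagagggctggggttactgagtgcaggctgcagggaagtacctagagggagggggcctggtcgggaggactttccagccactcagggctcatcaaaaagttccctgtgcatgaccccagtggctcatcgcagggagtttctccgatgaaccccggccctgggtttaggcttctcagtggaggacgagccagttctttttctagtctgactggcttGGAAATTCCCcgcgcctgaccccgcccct

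Both strands of all 32851 RefSeq windows of this length were searched. TGACGTCA was in 1.79% of the windows, a CArG box in 1.63% and a kappaB site in 8.46%. The kappaB letters were also in the windows of Ier3 and Nr4a1. TGANTCA, the element of the Fos and Jun dimer, was in 7.81% of the windows and in none of those of the 9 genes. These matches describe letters only, and none of the searched elements overlapped another in the 4 windows shown.

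The feedback genes were low at E12.5 in both tissues and high in the later brain, but they did not share 1 course (the plot of CPM by library). Fos, the anchor, was at 47.7 ± 26.5 CPM in yolk sac, 6.39 ± 6.79 in E12.5 brain, 1189 ± 181 in E18.5 brain and 1258 ± 75.3 in adult brain (SD, n = 4, 4, 6 and 4 libraries). By their calls in the brain they fell into 3 courses. Dusp1 and Ier2, like Fos, rose by E18.5 and did not pass the test between E18.5 and the adult. Zfp36, Rhob, Ier5, Sgk1, Btg2 and Nfkbia rose by E18.5 and again in the adult, and Ier3 was highest at E18.5. Nr4a1 was near the limit of detection throughout.

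**Figure D1:**
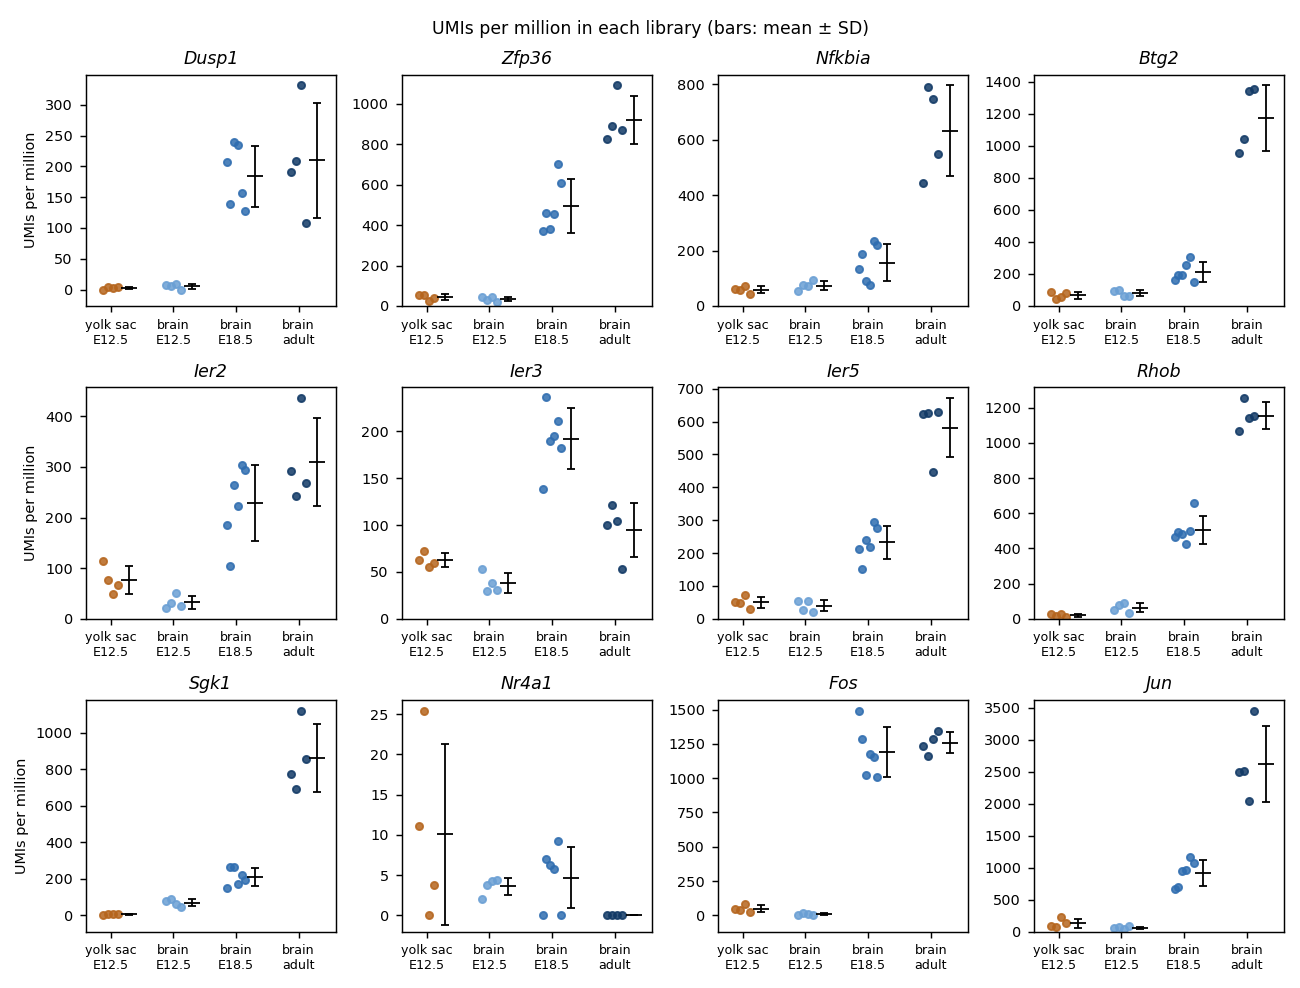
CPM (vertical axes, each from its own scale) of the 10 genes, Fos and Jun in the 18 libraries, by group; points are libraries and the bars beside them are mean ± SD. Dusp1 and Fos overlap between E18.5 and adult brain, while the adult libraries of Btg2, Rhob, Sgk1, Nfkbia, Ier5 and Zfp36 all lie above the E18.5 libraries.

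In yolk sac against brain at E12.5, where age and gate were the same, Sgk1 and Rhob fell and Ier2 rose in yolk sac. Of the 9 genes that passed the filter on low counts, 1 was called higher and 2 lower, where 7.04% and 8.81% of the 4883 tested rows were called (edgeR quasi-likelihood test, Benjamini-Hochberg adjusted p under 0.05). The median log2 fold change was −0.24 over the 9 genes and −0.05 over all tested rows. Sgk1 encodes a serum- and glucocorticoid-induced kinase that regulates ion channels and FoxO factors. Its level was 0, 7.26, 6.47 and 7.42 CPM in the yolk sac libraries, against 76.9, 89.9, 64.3 and 43.8 CPM in the E12.5 brain libraries. Every yolk sac library was far below every brain library. The log2 fold change was −3.56 (SE 0.42, edgeR adjusted p = 8.89e-09), from 6 yolk sac and 111 brain UMIs.

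Rhob, which encodes a short-lived endosomal protein induced by growth factors and DNA damage, was at 25.9, 18.1, 29.1 and 11.1 CPM in yolk sac, against 48.6, 78.6, 90.0 and 35.0 CPM in brain. The tissues did not overlap, and the log2 fold change was −1.50 (SE 0.31, edgeR adjusted p = 0.000262). Ier2, a nuclear immediate early protein, was at 115, 76.2, 48.5 and 66.7 CPM in yolk sac, against 22.3, 31.8, 51.4 and 26.3 CPM in brain. One brain library lay above the lowest yolk sac library, and the log2 fold change was 1.30 (SE 0.34, edgeR adjusted p = 0.00531). Fos (log2 fold change 2.70, SE 0.43, edgeR adjusted p = 1.61e-05) and Jun (1.12, SE 0.31, edgeR adjusted p = 0.0141) were higher in yolk sac as well.

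Dusp1 was counted 3 times in yolk sac and 9 times in brain, a ratio of 0.442 per UMI (exact 95% interval 0.0769 to 1.77), so no difference could be shown at this depth. Zfp36, Nfkbia, Btg2 and Ier5 had log2 fold changes of −0.30 to 0.37 and did not pass. Ier3 did not overlap between the tissues, averaging 62.5 ± 7.48 CPM in yolk sac libraries and 37.9 ± 10.5 CPM in brain libraries (SD, n = 4 each), but did not pass (log2 fold change 0.73, edgeR adjusted p = 0.0968). Ier3, Rhob and Sgk1 thus had libraries that did not overlap, as did 19.9% of tested rows.

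Within the sequencing batch named SB29, which held 2 libraries of each tissue, the log2 fold change of Sgk1 was −3.70 (edgeR adjusted p = 0.000314) and that of Ier2 was 1.30 (edgeR adjusted p = 0.0160), while Rhob did not pass the low-count filter there. With batch as a term over all libraries, Ier2 had 1.27 (edgeR adjusted p = 0.0640) and was no longer called. With each cell thinned to 300 UMIs, neither Ier2 (0.96, edgeR adjusted p = 0.381) nor Sgk1 (−1.95, edgeR adjusted p = 0.104) was called. The macrophage and microglia markers given above moved with this comparison. So did erythroid markers, which summed to 218 to 5102 CPM in yolk sac and 16.8 to 171 CPM in E12.5 brain, with 1 of 3 tested called higher. The part of these cells in the differences was not tested.

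Among related genes at E12.5, Dusp6, which dephosphorylates ERK, was lower in yolk sac (log2 fold change −1.22, SE 0.25) and Dusp3 was higher (0.92, SE 0.23), of 3 tested MAP kinase phosphatases and Sprouty-type inhibitors. Of 9 tested genes of the tristetraprolin family and mRNA decay, 0 passed in either direction. Of 7 mRNAs that NF-kB induces or Zfp36 destabilises, 2 rose and 1 fell in yolk sac. The chemokine Ccl2 averaged 109 ± 52.0 CPM in yolk sac libraries and 4.01 ± 6.83 CPM in brain libraries (SD, n = 4 each; log2 fold change 4.30, SE 0.53). Of 4 tested p53 targets 2 rose, and the cell cycle inhibitor Cdkn1a averaged 175 ± 55.8 CPM in yolk sac libraries and 43.0 ± 1.90 CPM in brain libraries (SD, n = 4 each), a difference of 2.06 on the log2 scale (SE 0.33).

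Between E12.5 and E18.5 in brain, all 9 tested feedback genes rose. Higher calls made up 11.1% of the tested rows in this comparison, and the median log2 fold change was 2.52 over the 9 genes and −0.03 over all tested rows. The size of the rise ran from 1.12 for Nfkbia to 4.83 for Dusp1, while Fos rose by 7.26 on the same log2 scale. For 8 of the 10 genes every E18.5 library lay above every E12.5 library, as for 8.11% of tested rows, and Nfkbia and Nr4a1 overlapped.

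Dusp1 was the lowest of the 9 at E12.5 and had the largest log2 fold change (SE 0.41, edgeR adjusted p = 4.52e-12). It was at 127 to 239.8 CPM in the 6 E18.5 libraries (median 182), against 8.09, 5.62, 8.57 and 0 CPM at E12.5. Zfp36 was at 372 to 703 CPM at E18.5 (median 456), against 44.5, 31.8, 42.8 and 21.9 CPM at E12.5. Its log2 fold change was 3.77 (SE 0.24, edgeR adjusted p = 1.33e-15), and the groups lay far apart. Btg2, an antiproliferative partner of the CCR4-NOT deadenylase and a p53 target, was at 149 to 308 CPM at E18.5 (median 195), against 95.1, 99.2, 64.3 and 61.3 CPM at E12.5. Its log2 fold change was 1.36 (SE 0.22, edgeR adjusted p = 9.62e-06), with no overlap.

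Nfkbia was at 133, 188, 88.3, 74.5, 234 and 221 CPM in the E18.5 libraries, against 54.6, 74.9, 72.8 and 91.9 CPM at E12.5. Replicates 3 and 4 at E18.5, which shared a plate, were within the E12.5 range, and the other 4 E18.5 libraries were above it. The log2 fold change was 1.12 (SE 0.27, edgeR adjusted p = 0.00196), and it was 1.14 with counts summed per plate (edgeR adjusted p = 0.0344). Sgk1 was at 149 to 265 CPM at E18.5 (median 207), against 76.9, 89.9, 64.3 and 43.8 CPM at E12.5. The groups did not overlap, and its log2 fold change was 1.55 (SE 0.23, edgeR adjusted p = 2.46e-06).

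The 3 immediate early response genes and Rhob rose by intermediate amounts. Ier2 averaged 229 ± 75.3 CPM in E18.5 libraries and 32.9 ± 12.9 CPM in E12.5 libraries, and its log2 fold change was 2.85 (SE 0.31, edgeR adjusted p = 2.28e-09). Ier3, an NF-kB-induced gene that affects ERK signalling and cell survival, averaged 192 ± 32.7 CPM in E18.5 libraries and 37.9 ± 10.5 CPM in E12.5 libraries (log2 fold change 2.30, SE 0.27, edgeR adjusted p = 1.27e-08). Ier5, which modulates the heat shock factor HSF1, averaged 232 ± 50.5 CPM in E18.5 libraries and 40.1 ± 17.6 CPM in E12.5 libraries (log2 fold change 2.52, SE 0.27, edgeR adjusted p = 1.52e-09). None of these overlapped between the ages. Rhob averaged 503 ± 80.8 CPM in E18.5 libraries and 63.0 ± 25.6 CPM in E12.5 libraries (SD, n = 6 and 4 for all 4 genes; log2 fold change 2.98, SE 0.21, edgeR adjusted p = 2.70e-14).

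No sequencing batch held brain libraries of both ages, so the difference could be separated from batch only through the yolk sac libraries, which spanned a batch of each age. With batch as a term, 6 of the 9 genes were still called. Dusp1 (4.44, edgeR adjusted p = 0.334), Nfkbia (0.94, edgeR adjusted p = 0.383) and Sgk1 (1.07, edgeR adjusted p = 0.761) were not. The sort gate also differed, and its part cannot be told apart from that of age. All 10 microglia markers were called higher at E18.5. The summed neutrophil and granulocyte precursor markers, given above, did not overlap between the ages, with 1 of 4 tested called higher. The part of these cells in the differences was not tested.

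Other genes of the same pathways were counted from fixed lists. Of 8 tested MAP kinases and upstream kinases 2 fell at E18.5 and 0 rose, and of 9 NF-kB subunits and inhibitors 0 passed. Of 10 AP-1, Egr and Klf factors 7 rose. Of 3 MAP kinase phosphatases and Sprouty-type inhibitors only Dusp6 rose, averaging 438 ± 67.0 CPM in E18.5 libraries and 138 ± 31.2 CPM in E12.5 libraries (SD, n = 6 and 4; log2 fold change 1.63, SE 0.21). Of 9 genes of the tristetraprolin family and mRNA decay, the family members Zfp36l1 (2.01, SE 0.36) and Zfp36l2 (1.24, SE 0.34) rose. Of 7 NF-kB and Zfp36 target mRNAs 6 rose, among them Ccl2 (3.98, SE 0.53) and the row that joins Ccl4 with ScyA4 (3.66, SE 0.57).

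In this comparison 13.4% of all tested rows were called lower. Of 7 tested heat shock genes 3 fell at E18.5, 0 rose and 4 did not pass, with the chaperonin partner Hspe1 at −1.15 (SE 0.20). Of 7 glucocorticoid target genes 0 rose and the metallothioneins Mt2 (−1.88, SE 0.32) and Mt1 (−1.40, SE 0.18) fell. Of 4 p53 targets Mdm2 (1.24, SE 0.45) and Cdkn1a (1.16, SE 0.33) rose, of 4 other immediate early genes Ppp1r15a (2.55, SE 0.60) and Trib1 (1.46, SE 0.40) rose, and of 3 nuclear receptor partners of Nr4a1 0 passed.

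**Figure D2:**
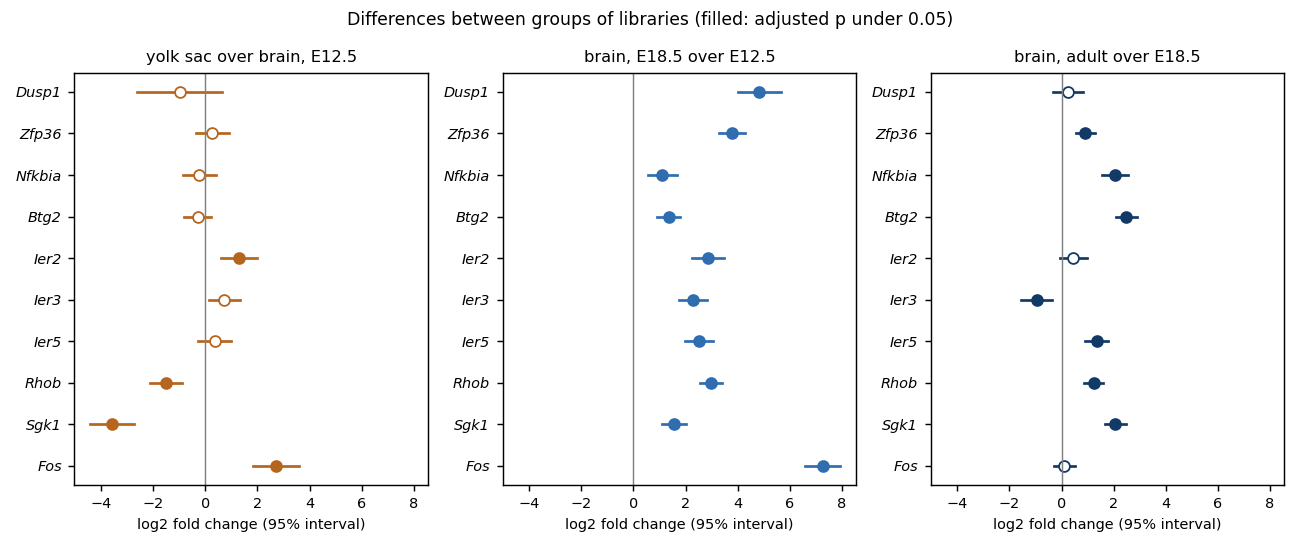
Log2 fold changes with 95% intervals (horizontal axis) of the 9 tested genes and Fos in the 3 comparisons between groups of libraries; filled points passed an adjusted p under 0.05. All 9 genes and Fos are to the right at E18.5 over E12.5, while in adult over E18.5 brain Dusp1, Ier2 and Fos are near 0, Ier3 is to the left and the other 6 are to the right.

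In adult brain against E18.5 brain the Fos level did not separate the ages (log2 fold change 0.11, 95% interval −0.29 to 0.51), and all 10 libraries were of 1 sequencing batch and 1 sort gate. Here 6 feedback genes rose, 1 fell and 2 did not pass, where 10.3% of tested rows were called higher and 11.2% lower. The median log2 fold change was 1.23 over the 9 genes and −0.03 over all tested rows. Libraries did not overlap for the 6 genes that rose and for Ier3, as for 16.8% of tested rows.

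Btg2 had the largest rise, at 955, 1044, 1340.4 and 1355 CPM in the adult libraries, against 149 to 308 CPM at E18.5 (median 195). The lowest adult library stood well above the highest E18.5 library, and the log2 fold change was 2.49 (SE 0.19, edgeR adjusted p = 3.95e-13). Sgk1 was at 774, 692, 1122 and 858 CPM in adult brain, against 149 to 265 CPM at E18.5 (median 207). Its log2 fold change was 2.07 (SE 0.21, edgeR adjusted p = 2.98e-10). Nfkbia was at 442, 791, 748 and 549.9 CPM in adult brain, against 74.5 to 234 CPM at E18.5 (median 160.2). Its log2 fold change was 2.04 (SE 0.25, edgeR adjusted p = 2.77e-08).

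Ier5 was at 623, 626, 447 and 630.3 CPM in adult brain, against 153 to 294 CPM at E18.5 (median 229; log2 fold change 1.34, SE 0.22, edgeR adjusted p = 1.38e-05). Rhob was at 1065, 1253, 1143 and 1153 CPM in adult brain, against 424 to 658 CPM at E18.5 (median 487; log2 fold change 1.23, SE 0.18, edgeR adjusted p = 1.02e-06). Zfp36 was at 824, 890.1, 1091 and 872 CPM in adult brain, against 372 to 703 CPM at E18.5 (median 456; log2 fold change 0.92, SE 0.19, edgeR adjusted p = 0.000299). In each of the 3 genes the lowest adult library was above the highest E18.5 library.

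Dusp1 and Ier2 did not pass. Dusp1 was at 191, 209, 332 and 107 CPM in adult brain, against 127 to 239.8 CPM at E18.5, with a log2 fold change of 0.24 (95% interval −0.34 to 0.82). The adult libraries spanned the E18.5 range, and without adult replicate 3 the value was −0.082. Ier2 was at 291, 242, 436 and 268 CPM in adult brain, against 104 to 303 CPM at E18.5, with a log2 fold change of 0.46 (95% interval −0.08 to 0.99). The highest bounds of Dusp1, Ier2 and Fos lie below the values of Ier5 and Rhob and of the 3 genes with larger rises, and Zfp36 lies within the interval of Ier2.

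Ier3 alone fell, at 101, 121, 104 and 53.6 CPM in adult brain, against 138 to 236 CPM at E18.5 (median 192). All adult libraries were below all E18.5 libraries, and the log2 fold change was −0.96 (SE 0.29, edgeR adjusted p = 0.0134). The call rested on 35 adult UMIs and was lost without adult replicate 4 (−0.81, edgeR adjusted p = 0.0569), with cells of at least 500 UMIs (−0.81, edgeR adjusted p = 0.0774) and with cells thinned to 300 UMIs (−1.02, edgeR adjusted p = 0.0846). The summed markers of neutrophils and granulocyte precursors and of microglia, given above, were higher in the adult libraries. Of 4 tested neutrophil and granulocyte precursor markers 2 were called higher and 0 lower, and of 10 microglia markers 7 and 0. S100a8 was at 0 in every adult library but was counted at E18.5. Of 4 monocyte markers with a row, 3 (Ccr2, Fn1 and Plac8) were at 0 in every adult library. The remaining marker alone reached 1870.3 CPM in adult replicate 3. The part of these cells in the differences was not tested. The 6 genes that rose were also called without replicate 3.

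This comparison shares the E18.5 libraries with the embryonic one. Of 9 tested NF-kB subunits and inhibitors 3 rose in adult brain: the inhibitor Nfkbib (1.23, SE 0.34), the subunit Rela (1.13, SE 0.24) and the subunit precursor Nfkb1 (0.95, SE 0.25). Of 9 genes of the tristetraprolin family and mRNA decay 4 rose, with Zfp36l2 at 335 ± 49.2 CPM in adult brain and 75.2 ± 31.7 CPM at E18.5 (SD, n = 4 and 6; edgeR adjusted p = 5.44e-07), Zfp36l1 at 1.26 (SE 0.31) and the deadenylase Cnot8 at 1.17 (SE 0.26). Of 3 nuclear receptor partners 2 rose, the glucocorticoid receptor Nr3c1 (1.51, SE 0.26) and Rxra (0.79, SE 0.28).

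Of 7 glucocorticoid target genes 3 rose and 2 fell. Ddit4, an inhibitor of mTOR signalling, was at 118 ± 54.3 CPM in adult brain and 19.2 ± 10.9 CPM at E18.5 (SD, n = 4 and 6; log2 fold change 2.66, SE 0.51), and the row that joins Tsc22d3 with Tilz3b at 1.83 (SE 0.31). Of 10 AP-1, Egr and Klf factors 3 rose: Jund (1.55, SE 0.28), Jun (1.54, SE 0.22) and the row that joins Junb with AK006748 (1.13, SE 0.17). Of 7 NF-kB and Zfp36 target mRNAs 0 rose and 3 fell, among them Ccl2 (−2.93, SE 0.68). Of 7 heat shock genes 4 fell and 0 rose, with Hsp90ab1 at 797 ± 174 CPM in adult brain and 2191 ± 222 CPM at E18.5 (SD, n = 4 and 6; log2 fold change −1.43, SE 0.14). Of 8 MAP kinases and upstream kinases 0 passed.

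At the level of single cells the same courses showed as shares of cells with a UMI. Each cell was drawn to 300 UMIs, so that shares could be compared across depths. In sums per library, more cells with a transcript and more transcript per cell cannot be told apart. At 300 UMIs the share with a UMI also depends on the level in each cell, so the shares do not separate them either. Btg2 was found in 1.94% of yolk sac cells, 1.95% of E12.5 brain cells, 5.85% of E18.5 brain cells and 27.6% of adult brain cells (174 of 631, exact binomial 95% interval 24.1 to 31.2). Rhob was found in 0.298%, 1.81%, 14.8% and 31.9% of cells over the same groups. Sgk1 was found in 0.298%, 1.39%, 5.34% and 19.7%, while Dusp1 was found in 0.149%, 0.279%, 6.25% and 6.34% and Ier3 in 1.79%, 0.836%, 5.95% and 2.22%. The intervals cover counting error only.

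A cell held 0.119 ± 0.0320 feedback genes on average in yolk sac, 0.113 ± 0.0345 in E12.5 brain, 0.725 ± 0.0759 in E18.5 brain and 1.51 ± 0.120 in adult brain (mean ± SD over 4, 4, 6 and 4 libraries, 300 UMIs per cell). None of the 10 was found in 88.7% of yolk sac cells, 89.6% of E12.5 brain cells, 49.2% of E18.5 brain cells and 22.8% of adult cells. At most 6 were found in 1 cell, in adult brain.

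Nr4a1, an orphan nuclear receptor of the immediate early class, was counted 21 times in all 3012 cells and did not pass the low-count filter. Its level was 11.1, 25.4, 0 and 3.71 CPM in yolk sac, 2.02, 3.74, 4.28 and 4.38 CPM in E12.5 brain, and 0 to 9.19 CPM in E18.5 brain. It was at 0 in all 4 adult libraries, where a floor of 3 UMIs over the group stands for 8.30 CPM. The mean at E18.5 (4.70 ± 3.82 CPM) lies below that floor. The counts were therefore too few to show a difference, and none is claimed.

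To ask which genes went with the Fos level of a cell, the cells of each E18.5 and adult library were split by Fos within the 300 drawn UMIs, and the 2 sums of a library were compared with library as a block. Fos-positive cells held at least 1 Fos UMI among the 300: 175 of 631 adult cells (27.7%, 24.1% to 29.4% over libraries) and 261 of 992 E18.5 cells (26.3%, 22.3% to 30.1%). At E12.5 this held for 10 of 671 yolk sac cells and 3 of 718 brain cells, too few for the comparison. Median UMIs per cell were 521 in both classes in adult brain, and 993 in Fos-positive against 980 in Fos-negative cells at E18.5.

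The split separates cells by a few-fold in Fos and not by its presence. In the UMIs of the same cells that were not drawn, Fos was at 1906 ± 378 CPM in Fos-positive and 689.9 ± 95.6 CPM in Fos-negative adult cells, and at 2172 ± 381 and 818 ± 171 CPM at E18.5 (SD over 4 and 6 libraries). The mean log2 ratio was 1.46 ± 0.42 in adult brain and 1.42 ± 0.33 at E18.5 (SD). Fos-negative brain cells at E12.5 held 4.87 ± 5.72 CPM.

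Zfp36 at both ages and Dusp1 at E18.5 had intervals above 0 in Fos-positive over Fos-negative cells, and neither gene passed over all tested rows. Of the 9 tested genes, 0 were called in adult brain, where 0% of 1520 rows were called and 89 had an unadjusted p under 0.05, and 0 were called at E18.5, where 0.263% were called and 94 had an unadjusted p under 0.05 (edgeR). DESeq2 called 0 of the 9 at either age. At an unadjusted p under 0.05 stood 1 of the 9 in adult brain, Zfp36, where 5.86% of rows did, and 2 at E18.5, Dusp1 and Zfp36, where 6.18% did. The median log2 fold change was 0.07 over the 9 genes in adult brain and 0.30 at E18.5, against −0.03 and 0.0037 over all tested rows.

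Zfp36 was at 1006, 1180.3, 1786 and 1181 CPM in the Fos-positive cells of the adult libraries, against 753, 802, 814 and 749 CPM in the Fos-negative cells. It was higher in Fos-positive cells in 4 of 4 libraries and the classes did not overlap, with a log2 fold change of 0.69 (95% interval 0.30 to 1.08, edgeR adjusted p = 0.271). How many of all tested rows did the same was not counted. At E18.5 it was at 414 to 889 CPM in Fos-positive cells, against 294 to 667 CPM in Fos-negative cells, and was higher in 5 of 6 libraries. The log2 fold change there was 0.42 (95% interval 0.10 to 0.74, edgeR adjusted p = 0.580). With the ages averaged in the same fit, a setting added after the data had been seen, it was 0.55 (95% interval 0.30 to 0.80, edgeR adjusted p = 0.00882).

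Dusp1 at E18.5 was at 244, 97.4, 381, 216, 332 and 289 CPM in Fos-positive cells, against 194, 156, 193, 243, 97.9 and 73.6 CPM in Fos-negative cells of the same libraries. It was higher in Fos-positive cells in 4 of 6 libraries, with a log2 fold change of 0.75 (95% interval 0.23 to 1.27, edgeR adjusted p = 0.501). In adult brain it was higher in 2 of 4 libraries, with 26 UMIs in Fos-positive and 52 in Fos-negative cells (log2 fold change 0.41, 95% interval −0.38 to 1.21).

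The calls at E18.5 differed between settings, which changed the class rule, the cells kept or the UMIs counted. With a second random draw, Dusp1 (1.01, edgeR adjusted p = 0.0158) and Zfp36 (0.79, edgeR adjusted p = 0.000128) were called, among 8 calls over 1643 rows. They were also called with cells of at least 500 UMIs drawn to 500 (1.27, edgeR adjusted p = 0.000476 and 0.83, edgeR adjusted p = 0.000107) and with the class taken from all UMIs of a cell (1.04, edgeR adjusted p = 0.0319 and 0.75, edgeR adjusted p = 0.00156). The number of all rows called with 500 UMIs drawn and with the class from all UMIs is not given here. In none of these settings was another of the 9 genes called at either age. A class taken from all UMIs does not hold depth equal between cells. Neither Dusp1 nor Zfp36 was called at E18.5 with the drawn UMIs alone or with at least 2 Fos UMIs against 0. The same held with cells split by Jun and with any single library left out.

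**Figure D3:**
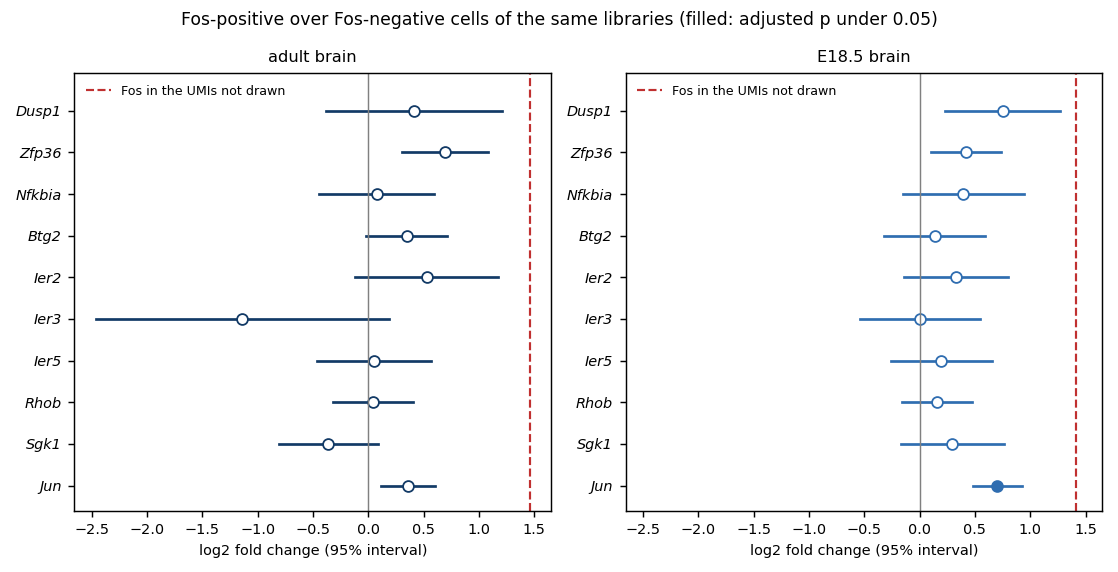
Log2 fold changes with 95% intervals (horizontal axis) of Fos-positive over Fos-negative cells of the same libraries, for the 9 tested genes and Jun in adult and E18.5 brain; filled points passed an adjusted p under 0.05 and the dashed line is the mean log2 ratio of Fos in the UMIs not drawn. Jun at E18.5 is the single filled point, and every value lies to the left of the dashed line.

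Rhob, Ier5, Btg2 and Sgk1 showed no shift that passed. Rhob was at 1078, 1133, 1203 and 1369 CPM in Fos-positive adult cells, against 1060.4, 1289, 1119 and 1068 CPM in Fos-negative cells. The classes overlapped, and the log2 fold change was 0.04 (95% interval −0.32 to 0.41) in adult brain and 0.16 (95% interval −0.16 to 0.47) at E18.5. Both intervals lie below the mean log2 ratio of Fos. So do those of every other tested gene and of Jun at both ages, so this does not set Rhob apart. Sgk1 was at 503, 614, 1312 and 472 CPM in Fos-positive adult cells, against 879, 716, 1046 and 1012 CPM in Fos-negative cells, and was lower in 3 of 4 libraries. Its log2 fold change was −0.36 (95% interval −0.81 to 0.08) in adult brain and 0.30 (95% interval −0.17 to 0.76) at E18.5. Btg2 had 0.35 (95% interval −0.02 to 0.71) in adult brain and 0.14 (−0.32 to 0.59) at E18.5. For Ier5 the values were 0.05 (−0.47 to 0.57) in adult brain and 0.20 (−0.26 to 0.65) at E18.5.

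Nfkbia had 0.07 (−0.44 to 0.59) in adult brain and 0.40 (−0.15 to 0.94) at E18.5, and Ier2 had 0.53 (−0.12 to 1.17) and 0.33 (−0.14 to 0.79). Ier2 was higher in Fos-positive cells in 4 of 4 adult libraries and 3 of 6 E18.5 libraries, and with the ages averaged it had 0.43 (0.03 to 0.83, edgeR adjusted p = 0.787). Ier3 had −1.14 (−2.46 to 0.18) in adult brain, from 5 UMIs in Fos-positive and 30 in Fos-negative cells, and 0.01 (−0.53 to 0.55) at E18.5. None of these passed. Without adult replicate 3 the adult values of Nfkbia (−0.29) and Ier5 (−0.10) changed sign, as did those of Ier5 (−0.21) and Rhob (−0.064) without adult replicate 4. At E18.5 Ier3 changed sign without replicate 1 (−0.090), 3 (−0.067) or 6 (−0.16), and Ier5 without replicate 3 (−0.038).

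Jun, which forms the AP-1 dimer with Fos, gives a measure of what the split can show. It was at 1059, 950.0, 1651, 1120.2, 1699 and 1245 CPM in Fos-positive cells at E18.5, against 532, 593, 714, 907, 991 and 1024 CPM in Fos-negative cells of the same libraries. It was higher in 6 of 6 libraries there (log2 fold change 0.70, 95% interval 0.48 to 0.92, edgeR adjusted p = 1.71e-06) and in 4 of 4 in adult brain (0.36, 95% interval 0.12 to 0.60, edgeR adjusted p = 0.550). The Fos effect was not shown to differ between adult and E18.5 brain for any of the 9 genes (edgeR adjusted p over 0.05 in all, with 0.0658% of rows called). At an unadjusted p under 0.05 stood 1 of the 9, Sgk1, where 5.39% of rows did, and DESeq2 called 0 of the 9. Of the fixed lists, 1 row besides Jun was called by Fos class at E18.5, the row that joins Ccl4 with ScyA4, which was lower in Fos-positive cells (−1.42, SE 0.30).

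**Figure D4:**
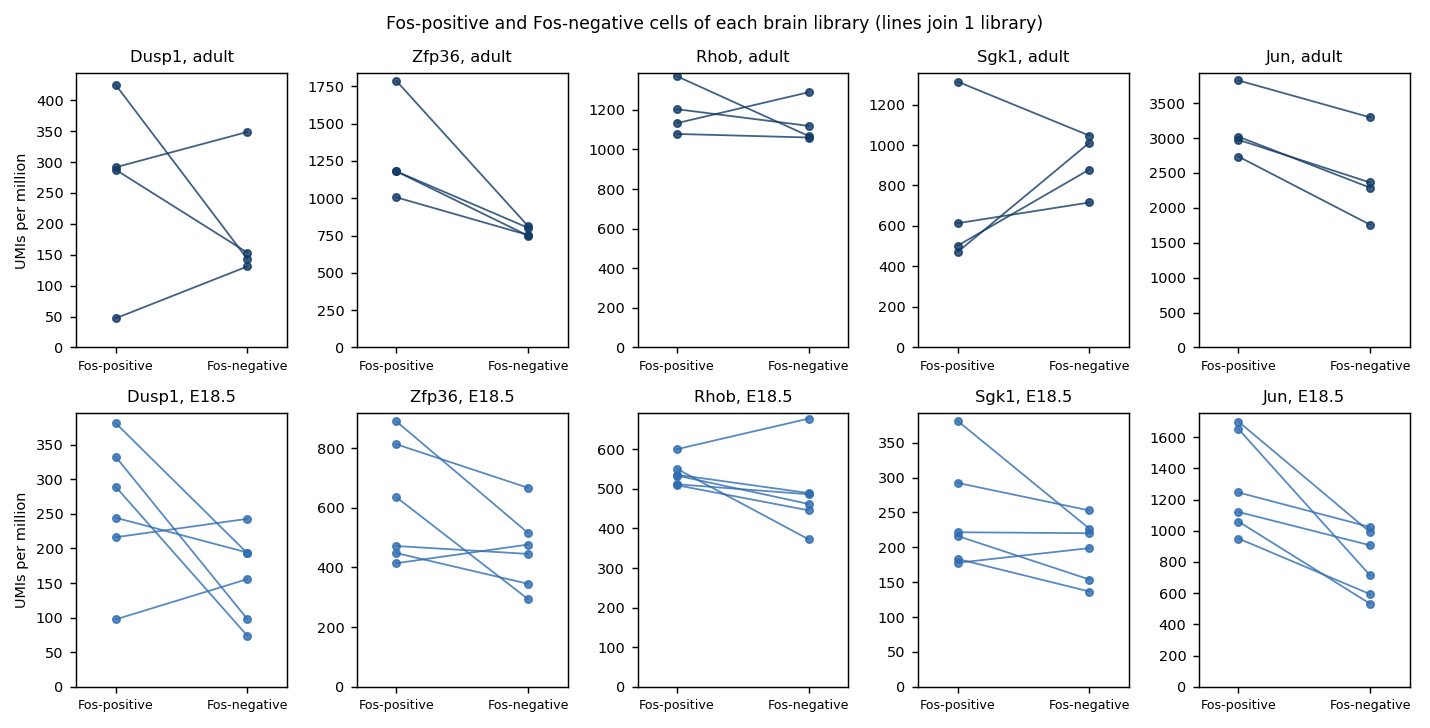
CPM (vertical axes) of Dusp1, Zfp36, Rhob, Sgk1 and Jun in Fos-positive and Fos-negative cells of the 4 adult (top) and 6 E18.5 libraries (bottom); each line joins the classes of 1 library. The lines of Zfp36 in adult brain and of Jun at both ages all fall towards the Fos-negative cells, while those of Rhob, Sgk1 and Dusp1 run both ways at each age.

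Cells were also taken by 0, 1 and at least 2 Fos UMIs among the 300, as the share with a UMI among the 300 and as the CPM of all UMIs of the pooled cells. These values pool cells of several libraries, so they are a description with no test. In adult brain Zfp36 was found in 19.7% (exact 95% interval 16.2 to 23.7), 32.4% (23.9 to 42.0) and 31.2% (20.2 to 44.1) of the 456, 111 and 64 cells, at 781, 1210.3 and 1471 CPM. Ier2 was found in 6.80% (4.67 to 9.51), 7.21% (3.16 to 13.7) and 17.2% (8.90 to 28.7) of them, at 277, 251.5 and 706 CPM. Both genes were thus highest in CPM in the cells with at least 2 Fos UMIs. So were Btg2, Rhob, Nfkbia (618, 597 and 824 CPM) and Dusp1 (197, 236 and 324 CPM), while Ier5, Sgk1 and Ier3 were not.

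Rhob was found in 31.6%, 31.5% and 34.4% of the same cells, at 1138, 1179 and 1206 CPM. Sgk1 was found in 19.3%, 20.7% and 20.3%, while its CPM was 906, 833 and 588, lower in the cells with more Fos. Btg2 was found in 25.4%, 31.5% and 35.9%, at 1069, 1226 and 1765 CPM. Jun was found in 40.6%, 51.4% and 59.4%.

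At E18.5 the cells with 0, 1 and at least 2 Fos UMIs numbered 731, 179 and 82. Dusp1 was found in 5.88% (4.29 to 7.84), 6.70% (3.51 to 11.4) and 8.54% (3.50 to 16.8) of them, at 156, 257 and 273 CPM. Zfp36 was found in 12.4%, 15.1% and 12.2%, at 467, 523 and 857 CPM. For both genes the CPM was higher at more Fos UMIs, while the share of Zfp36 was not highest at the top level. The CPM of Nfkbia, Btg2, Rhob and Sgk1 was also higher at each step, and that of Ier2, Ier3 and Ier5 was not. The mean number of the 10 genes per cell was 1.74 ± 0.397 in Fos-positive and 1.42 ± 0.0621 in Fos-negative adult cells, and 0.749 ± 0.0681 and 0.713 ± 0.109 at E18.5 (SD over 4 and 6 libraries).

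**Figure D5:**
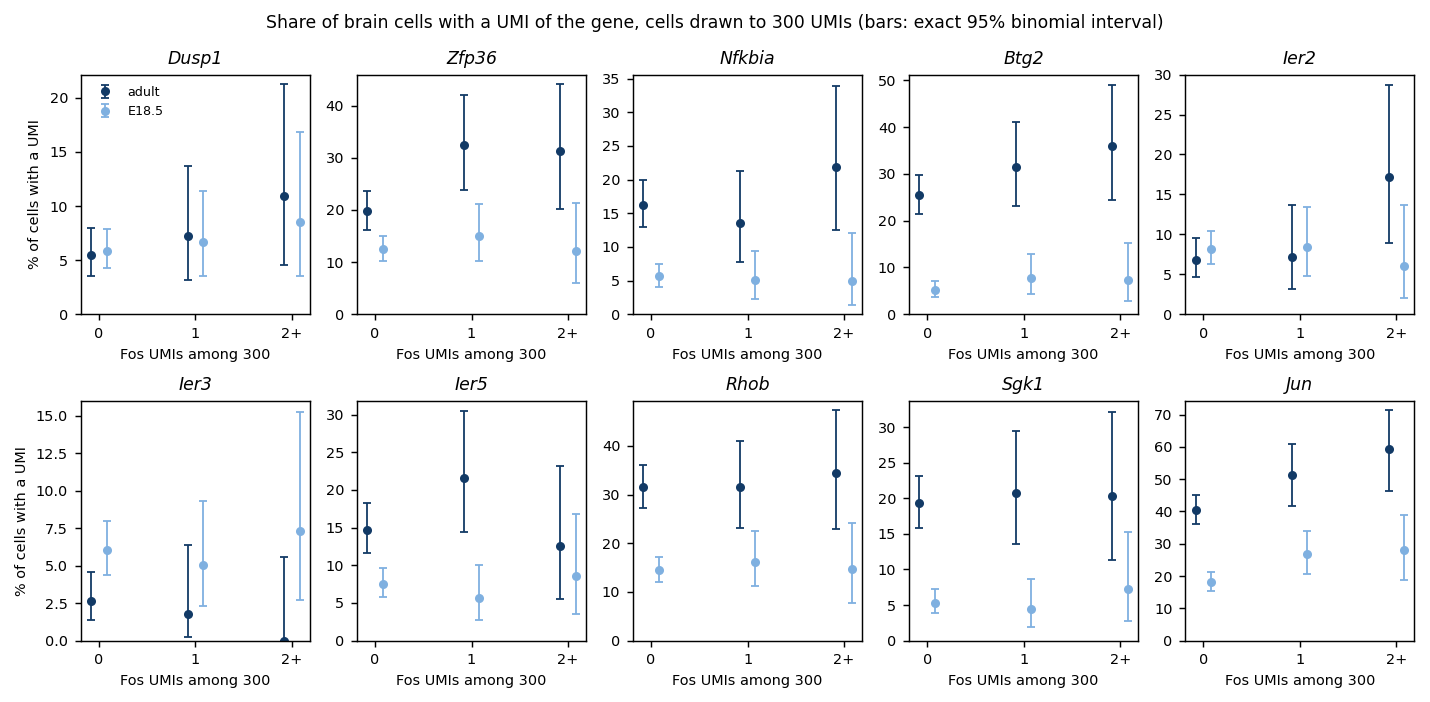
Share of brain cells with a UMI of each gene (vertical axes, %) by the number of Fos UMIs among 300 drawn UMIs (horizontal axis), in adult and E18.5 brain; bars are exact 95% binomial intervals and cover counting error only. The adult points of Zfp36 step up from 19.7% at 0 Fos UMIs to 32.4% at 1, while those of Rhob stay at 31.5% to 34.4%.

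The stage comparisons were repeated within Fos-negative cells alone. In adult against E18.5 brain, 6 genes were called higher: Btg2 (log2 fold change 2.40, SE 0.21), Sgk1 (2.22, SE 0.20), Nfkbia (2.11, SE 0.25), Ier5 (1.35, SE 0.25), Rhob (1.23, SE 0.18) and Zfp36 (0.78, SE 0.19). The call of Zfp36 was lost with no low-count filter (0.55, edgeR adjusted p = 0.0688). Of the 3272 rows tested there, 11.2% were called higher. Dusp1 (0.33, 95% interval −0.39 to 1.05), Ier2 (0.35, −0.23 to 0.94) and Ier3 (−0.74, edgeR adjusted p = 0.0964) did not pass. Without adult replicate 3 the value of Dusp1 was −0.10. In the UMIs not drawn, Fos in Fos-negative cells was at 562 to 780.1 CPM over the adult libraries and 615 to 1109 CPM over the E18.5 libraries, and the ages overlapped. In the fit itself Fos was called lower in the adult (−0.79, SE 0.23, edgeR adjusted p = 0.0117). Its sums include the drawn UMIs, chosen to hold no Fos and a larger part of adult cells (median 521 against 980 UMIs). That value therefore does not compare Fos levels, and an equal Fos level was not shown.

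In E18.5 against E12.5 brain all 9 were called higher among Fos-negative cells as well, where 14.8% of tested rows were, with log2 fold changes of 4.59 for Dusp1, 3.67 for Zfp36, 2.98 for Rhob, 2.90 for Ier2, 2.49 for Ier5, 2.31 for Ier3, 1.47 for Sgk1, 1.33 for Btg2 and 1.03 for Nfkbia. The UMIs not drawn held Fos at 818 ± 171 CPM in these E18.5 cells and 4.87 ± 5.72 CPM in these E12.5 cells (SD over 6 and 4 libraries), so the embryonic step was not measured at an equal Fos level.

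Over the 4 group means, the course of Zfp36 and Dusp1 was the nearest to that of Fos among the 10, at distances of 2.04 and 2.16, and Nr4a1 (5.90) and Ier3 (4.29) were the farthest. Rhob (2.63) and Ier5 (2.93) were nearer than Ier2 (3.30), although Ier2 was grouped with Fos by its calls in the brain. The distance is Euclidean over the 4 group means of log2(CPM + 10), centred on their mean, and is a description with no test. The means were not scaled, so the distance depends on the size of a rise as well as on its course. The next gene to each member was sought in the same way among 4167 rows whose highest group mean reached 50 CPM. It was Jun for Zfp36 (0.655), Lag3 for Dusp1 (0.695) and Rhob (0.562), Phf15 for Nfkbia (0.113), Slc1a3 for Btg2 (0.348) and Ecscr for Sgk1 (0.486). For Ier2 it was Abca9 (0.399), for Ier3 Malat1 (0.141), for Ier5 Nav3 (0.501) and for Nr4a1 Ppp4r1 (0.0331), where the added 10 CPM exceeds most values of Nr4a1. The added 10 CPM also exceeds the yolk sac and brain means at E12.5 of Phf15 (4.59 and 5.68 CPM), Slc1a3 (0 and 0 CPM) and Nav3 (0.809 and 4.25 CPM). The E12.5 means of Nfkbia, Btg2 and Ier5 all lie above 10 CPM. These 3 distances therefore do not show equal fold changes.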

How the data were processed

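The authors deposited a table of raw UMI counts per gene row and well, made from 3′ single-cell libraries (MARS-seq) per the labels. Per the submitters' processing notes bcl2fastq 2.15.0.4 and build mm9 were used. The aligner was not given in the sources used here, nor was the rule for collapsing UMIs. Rows that join several symbols (2109 of 27297) cannot be split, and levels of UMIs from the 3′ end carry no gene length.

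Of 3420 single-cell wells 3012 with at least 300 UMIs were kept, and no doublet caller was run on these sorted wells. No well ID was shared between libraries. Counts were summed per library, which is the replicate, and tested with edgeR 4.0.16 (quasi-likelihood, TMM scaling, filterByExpr) in R 4.3.3, with limma 3.58.1 loaded and Benjamini-Hochberg adjustment over all 4883 rows, called under 0.05. For the Fos classes each cell was drawn without replacement to 300 UMIs (seed 1) to set its class, all its UMIs were summed per library and class, and 1 fit with library as a block covered E18.5 and adult (1520 rows, Fos left out of the adjustment). The CPM of Fos in the UMIs not drawn is independent of the draw. Fos-negative sums of the 14 brain libraries were also fitted alone (3272 rows). The scripts were tested on simulated counts.

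The genes and lists were chosen with earlier results of these data known. The 9 genes that passed the low-count filter are given in each comparison between groups or Fos classes, and Nr4a1 by its levels alone. Of the lists, the text names some of the up to 3 called genes with the largest fold change in each. The counts of 1 gene list are not reported here. DESeq2 1.42.0, other scalings, filters, draws, class rules, batch as a term, sums per plate and leaving out each library were the alternatives. Coordinates and promoter sequences are from RefSeq (GRCm38.p6), not from mm9.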

Additional observations from a re-analysis of the deposited data

Results flagged for a closer look

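Among 66 groups of 4 or 6 libraries examined, 5 had a library far from the others by Dixon's 95% criterion, where chance gives about 1 in 20. Dusp1 was at 0 CPM in yolk sac replicate 1, against 3.24 to 3.71 CPM in the other yolk sac libraries, where 1 UMI each made up the value. Sgk1 was at 0 CPM in the same library, against 6.47 to 7.42 CPM in the others. Ier5 was at 447 CPM in adult replicate 3, against 623 to 630.3 CPM in the other adult libraries. Rhob was at 658 CPM in E18.5 replicate 6, against 424 to 501 CPM in the others. The difference of Ier2 between Fos-positive and Fos-negative adult cells was 219 CPM in replicate 4, against 94.4 to 116 CPM in the other libraries.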

How the results depend on the processing

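Of 1035 alternative values of the 9 genes over the 7 comparisons other than the difference of Fos effects, 976 kept their direction and side of the threshold, 41 changed sign, 10 lost a call and 8 gained one. The contrast that averaged the ages is counted under both ages in these numbers. Leaving out 1 library kept the number of genes called at 3 in yolk sac against brain, 9 at E18.5 against E12.5, 6 to 7 in adult against E18.5, and 0 in both Fos-class comparisons. With cells thinned to 300 UMIs, 1 gene was called in yolk sac against brain, where 241 of 1413 rows were called. In Fos-positive against Fos-negative cells at E18.5, 2 genes were called with the second draw, where 8 of 1643 rows were called, and 2 with 500 UMIs drawn. The class from all UMIs also called 2 genes there. For the class from all UMIs and for 500 UMIs drawn, the number of all rows called is not given here. The single contrast that averaged the ages called 1 gene, Zfp36, where 4 of 1520 rows were called. The class from all UMIs and the averaged contrast were added after the data had been seen. Zfp36 in Fos-negative cells, adult against E18.5, was not called with no low-count filter (0.55, edgeR adjusted p = 0.0688). The cause of these changes was not tested.

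Values that changed sign were log2 fold changes that had not been called. In yolk sac against brain Btg2 was 0.12 when thinned, 0.023 with batch as a term and 0.048 within SB29. With no low-count filter Btg2 was −0.038, Ier3 −0.17 and Rhob −0.021 by Fos class at E18.5, and Nfkbia −0.22, Ier5 −0.24 and Rhob −0.25 in the adult. With the second draw Nfkbia was −0.031 and Rhob −0.22 in the adult. With the drawn UMIs alone Nfkbia was −0.10 and Ier5 −0.065 at E18.5, and Ier2 was −0.013 in Fos-negative cells, adult against E18.5. With at least 2 Fos UMIs against 0, Ier2 was −0.18 at E18.5, and Ier5 −0.035 and Rhob −0.068 in the adult. With 500 UMIs drawn Btg2 was −0.057 and Sgk1 −0.20 at E18.5, and Ier3 0.39 and Rhob −0.10 in the adult. With the class from all UMIs Ier5 was −0.18 at E18.5, and Nfkbia −0.018 and Rhob −0.10 in the adult. With cells split by Jun, Sgk1 was −0.61 at E18.5, and Nfkbia −0.23, Ier5 −0.21 and Sgk1 0.023 in the adult. With the ages averaged Ier3 was −0.57 and Sgk1 −0.034.

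With 1 library left out, values by Fos class ran from −0.16 to 0.21 for Ier3 and −0.038 to 0.39 for Ier5 at E18.5, and from −0.29 to 0.39 for Nfkbia, −0.21 to 0.46 for Ier5 and −0.064 to 0.12 for Rhob in the adult. Dusp1 in adult against E18.5 ran from −0.082 to 0.41, and from −0.10 to 0.51 in Fos-negative cells. The Fos classes were paired by library, and with no replicate block Ier3 at E18.5 was −0.00339 and 0 of the 9 genes were called at either age. Replicate numbers of different stages do not pair libraries, so no block was used there.

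Over all rows, thinning to 300 UMIs left 241, 463 and 423 calls in yolk sac against brain, E18.5 against E12.5 and adult against E18.5, where 774, 1195 and 1050 had been made. Sums per plate left 493, 660 and 698, and batch as a term left 332 at E18.5 against E12.5. By Fos class at E18.5 the 4 calls became 1 with DESeq2, 13 with no low-count filter, 8 with the second draw, and 0 with the drawn UMIs alone, with at least 2 Fos UMIs against 0 or with no replicate block. In the adult the 0 calls became 1 with RLE scaling or without replicate 4 and 17 with no low-count filter. The contrast that averaged the ages made 4 calls. For the difference of Fos effects the 1 call became 0 to 2. In Fos-negative cells the drawn UMIs alone left 318 calls at E18.5 against E12.5 and 324 in adult against E18.5. Adult libraries held the fewest UMIs, and genes with few UMIs in a class, such as Dusp1 and Ier3, had the widest intervals.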
